A study of Mus musculus with 3 samples.

Results

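The 38 collagen genes described here were every gene of the deposited table named as a collagen α chain, other than Col17a1 and Col7a1, with at least 50 unique molecular identifiers (UMIs, each marking 1 captured transcript) over all cells. The table held 43 such names among 19165 genes, of which 41 remained without those 2 epithelial genes. Col11a2 with 72 UMIs and Col6a5 with 52 lay nearest above the minimum, while Col28a1 with 28, Col6a4 with 14 and Col4a3 with 3 lay below it and are not described further. The cells came from the dorsal skin of male C57BL/6 mice of stages E13.5, E16.5 and P0. No group carried a transgene or had a treatment. The animals of a stage were pooled into 1 library for droplet-based 3' sequencing, so there was no replicate library and no test was run. Embryonic skin of both stages was digested with trypsin and P0 skin with collagenase IV. Stage and library cannot be told apart, and neither can enzyme where P0 is compared with an embryonic stage.

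Collagens are secreted proteins whose α chains wind around each other, in sets of like or unlike chains, into a triple helix. Types I, III and V build the fibrils that give dermis its strength, type IV forms the sheet-like network of basement membranes under epithelium and around vessels, nerves and muscle, and type VI forms beaded filaments close to the cell surface. Other members sit on the surface of fibrils, span the cell membrane, or, as the multiplexins Col15a1 and Col18a1 do, carry long sugar chains in basement membrane zones. In skin, fibroblasts are known as the main source of the fibrillar chains, and the dermal condensate (DC) and dermal papilla (DP) are the fibroblast clusters that signal to the hair follicle epithelium.

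A level is given below as UMIs summed over the cells of a class per 1000000 UMIs of that class (CPM), followed by its 95% exact Poisson interval, which covers counting error only. Because the protocol counts 1 tag per transcript, levels of different genes were not scaled by length. Differences are of log2(CPM + 10), which understates the change of low genes, and a gene was counted as higher or lower where this difference reached 1. Each library was clustered without any collagen among its features, and clusters were named from other marker genes, so that dermal-like means a cluster high in genes such as Lum, Dcn, Twist2 and Pdgfra. The classes compared most held 2339, 2513 and 2298 dermal-like cells at E13.5, E16.5 and P0, 512, 954 and 1247 epithelial-like cells and 396, 351 and 255 endothelial-like cells.

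The libraries held 5962, 5208 and 5065 cells with a median of 7067, 11021 and 6797 UMIs, and pairs of libraries shared 32 to 44 cell barcodes. Dermal markers had UMIs in every other class as well, and their summed level reached 26.2% to 80.3% of the dermal-like level at E13.5, 9.91% to 58.4% in the E16.5 library and 5.83% to 23.2% at P0. The part of this signal in the differences between classes was not tested. At E13.5 only 5 of the 12 dermal markers were highest in the dermal-like class, against 9 of 12 in the later libraries. Part of a class also sat in sub-clusters led by markers of another class, at E13.5 306 of the epithelial-like, 274 of the endothelial-like and 764 of the dermal-like cells. The E13.5 library also held 446 neural-like, 557 muscle-like and 337 tendon-like cells, whereas at E16.5 31 muscle-like cells were the only ones of these classes.

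The share of all UMIs that came from the 38 collagens differed between classes at each stage. In dermal-like cells it was 0.802% (0.798 to 0.805), 2.93% (2.93 to 2.94) and 4.10% (4.09 to 4.11) in order of stage. In dermal-like cells of at least 2500 genes the share was 2.91% at E16.5 and 2.74% at P0, so the order of these stages turned with the cell filter. In epithelial-like cells it was 0.279%, 0.335% and 0.262%, and in endothelial-like cells 0.364%, 0.440% and 0.504%. The dermal-like share was thus the highest of the 3 at every stage. Immune-like cells, which are not known to make fibrillar collagens, had 0.340%, 0.350% and 0.280%, close to the epithelial-like share. Erythroid-like cells reached 0.615% at E13.5 and 1.61% at E16.5, the latter in 30 cells whose dermal marker level was 58.4% of that in dermal-like cells.

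**Figure D1:**
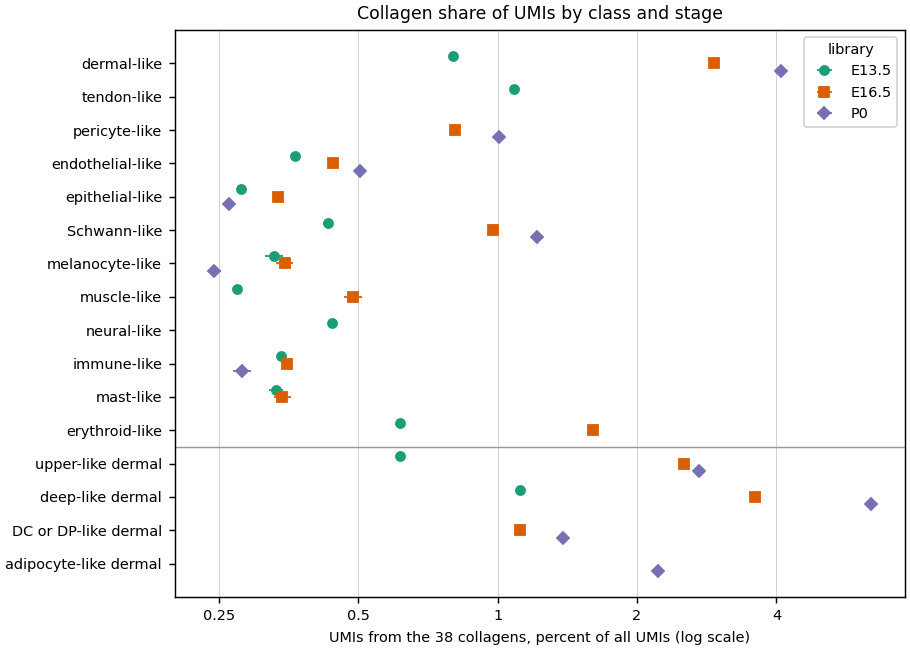
Percent of UMIs from the 38 collagens (log axis) in each class, with 1 point per class and library and bars for the 95% counting interval. Dermal-like cells lie at 0.802%, 2.93% and 4.10%, while epithelial-like, endothelial-like and immune-like cells stay between 0.262% and 0.504% in all 3 libraries.

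Between the other classes, Schwann-like cells had 0.429%, 0.978% and 1.21% when pooled, with median cells at 0.462%, 0.485% and 0.771%, and pericyte-like cells 0.807% at E16.5 and 1.004% at P0. Tendon-like cells had 1.08% (1.07 to 1.09) at E13.5, above the dermal-like cells of the same library. Within the epithelial-like class at P0 the median cell had 0.118% against the pooled 0.262%, and 1 cluster of 46 cells with 2.34% lay apart from the other clusters at 0.0997% to 0.239%. A like cluster of 60 cells at E16.5 had 1.57%, and the other clusters of its class 0.185% to 0.323%.

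Fibrillar chains took 84.1% of the collagen UMIs with 11 members and type VI took 9.23% with 5. Type IV followed with 2.52%, fibril-associated chains with 1.97%, Col26a1 with 0.798%, the multiplexins with 0.678%, the transmembrane chains with 0.337% and the short-chain network with 0.330%. Most of the signal came from 3 genes, namely Col3a1 with 681867 UMIs, Col1a1 with 609855 and Col1a2 with 498422. The other members ranged from 83608 UMIs for Col6a1 down to 52 for Col6a5.

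The class with the highest level of a gene differed by stage. At E13.5 tendon-like cells were highest for 19 of the 38 members and dermal-like cells for 9. At E16.5 dermal-like cells were highest for 14 and Schwann-like cells for 13, and at P0 these classes were highest for 15 and 12. The remaining members were highest in endothelial-like cells for 4, 2 and 5 genes, in pericyte-like cells for 5 at E16.5 and 3 at P0, and in other classes. How often each class was highest over all genes was not counted, so these counts describe the members only. Several of these first places rest on a few UMIs or overlap the second class in interval. In Schwann-like cells these included Col2a1, Col4a4, Col5a3, Col11a2, Col18a1 and Col19a1 at E16.5 and Col4a4, Col5a3, Col8a2, Col9a1 and Col19a1 at P0. Intervals are given below for the genes described.

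**Figure D2:**
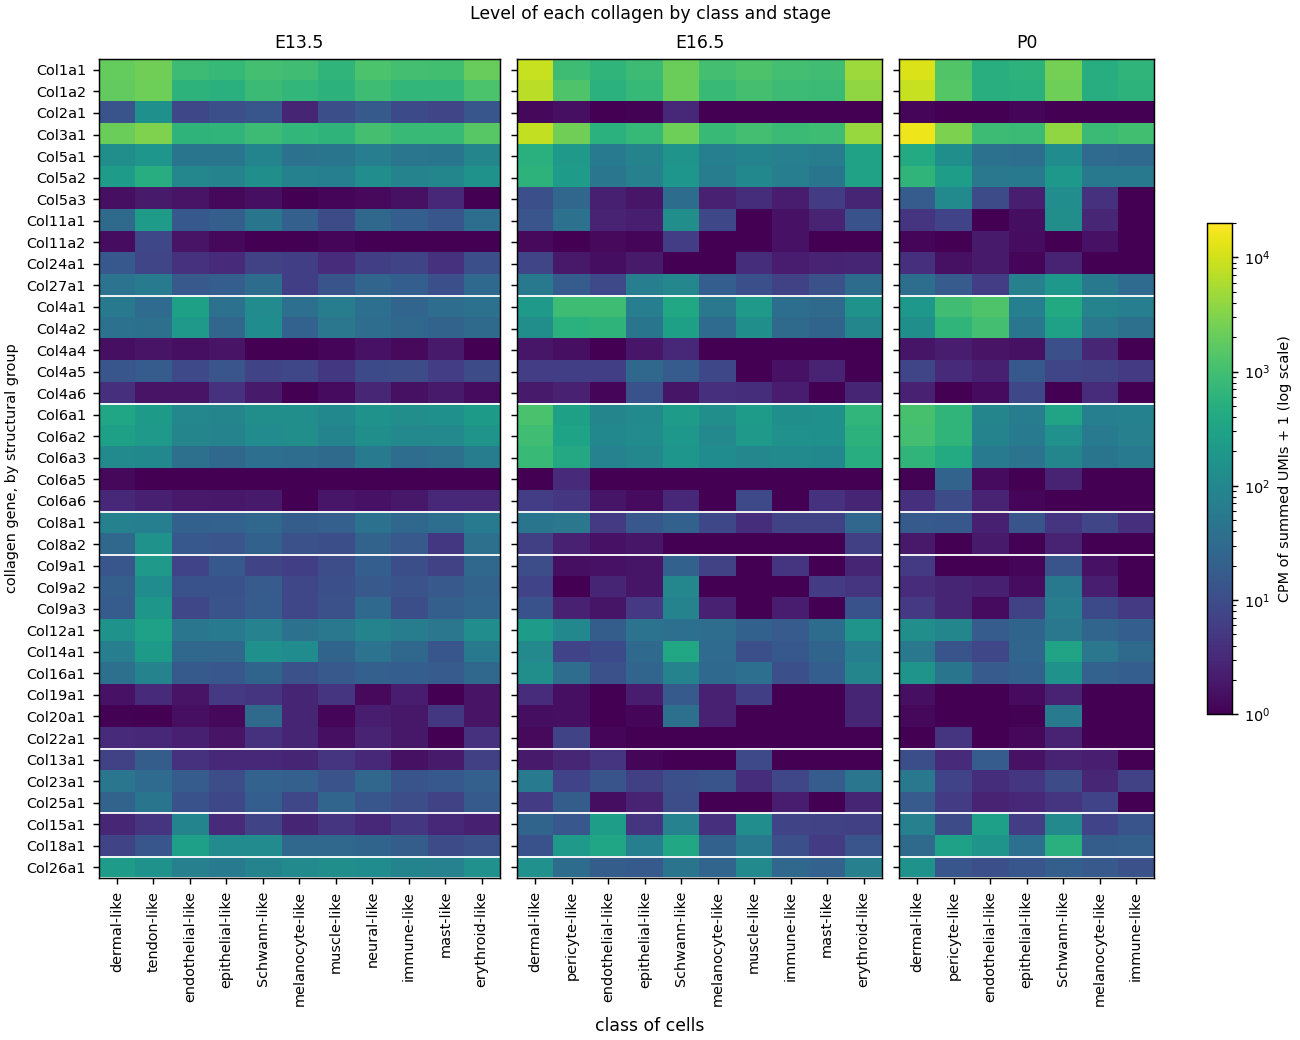
Level of every collagen (rows, by structural group) in every class (columns) of each library, as CPM + 1 on a log colour scale. The fibrillar chains Col1a1, Col1a2 and Col3a1 form rows that are high in all classes and highest at P0 in dermal-like cells (8813 to 15417 CPM), whereas Col15a1, Col18a1, Col4a1 and Col4a2 are high in the endothelial-like column.

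Dermal-like cells were set against epithelial-like cells of the same library to ask which chains separate the main layers of skin. At E13.5, 14 members were higher in dermal-like cells, beside 2.75% of all 15477 genes tested. At E16.5 it was 18 members beside 5.89% of genes, and at P0 it was 17 members beside 6.24%. The median difference of the members was 0.46, 0.87 and 0.66, and that of all genes 0.01, 0.02 and -0.00. In all 3 libraries 12 members were higher: Col1a1, Col1a2, Col3a1, Col5a1, Col5a2, Col6a1, Col6a2, Col6a3, Col12a1, Col16a1, Col23a1 and Col26a1. The share of all genes higher in all 3 libraries was not counted. Lower in dermal-like cells were Col18a1 at E13.5 and E16.5 and Col4a5 at E16.5. The count at E13.5 depended on the setting. With 50 CPM added in place of 10 it was 8, and without the sub-clusters led by markers of another class it was 19.

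Endothelial-like cells were set against the same dermal-like cells in the same way. The same 4 members were higher in endothelial-like cells at every stage, Col4a1, Col4a2, Col15a1 and Col18a1, beside 2.77%, 4.98% and 5.52% of all genes in order of stage. Lower in endothelial-like cells were 14, 15 and 16 members, beside 2.08%, 4.89% and 5.01% of all genes, and 14 of them were lower in every library, namely Col1a1, Col1a2, Col3a1, Col5a1, Col5a2, Col6a1, Col6a2, Col6a3, Col8a1, Col12a1, Col14a1, Col23a1, Col26a1 and Col27a1. The share of all genes higher, or lower, in every library was not counted. The median difference of the members was -0.61, -0.77 and -0.47, and that of all genes -0.04, -0.01 and -0.01. These comparisons and those with epithelial-like cells share their dermal-like cells, so they are not independent of each other.

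**Figure D3:**
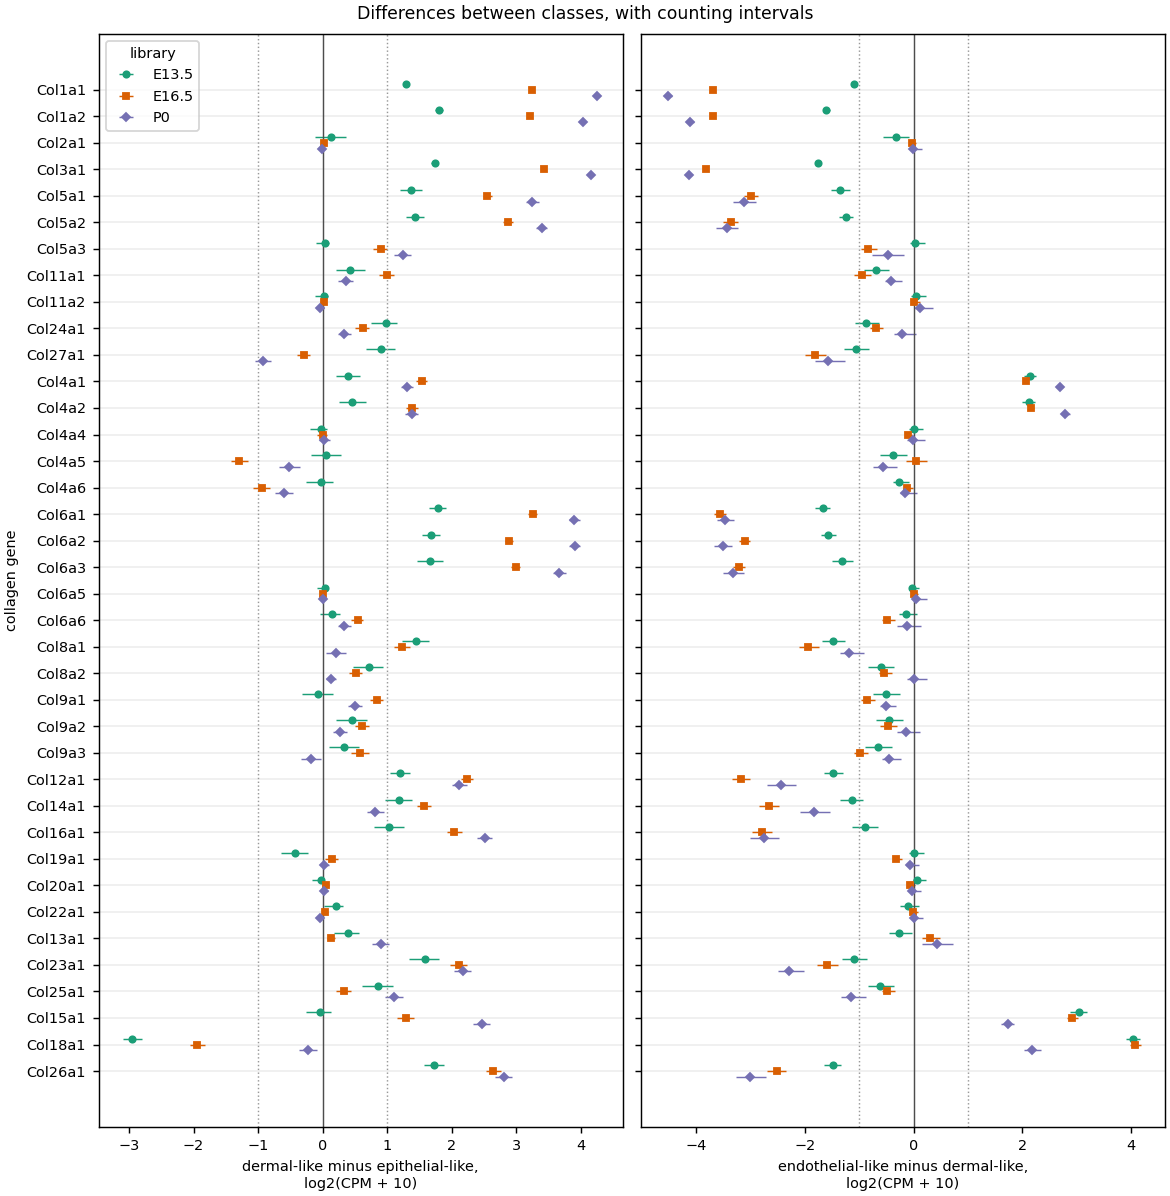
Difference of log2(CPM + 10) between classes for each of the 38 collagens, dermal-like minus epithelial-like on the left and endothelial-like minus dermal-like on the right, with 1 point per library, bars for the counting interval and dotted lines at a difference of 1. On the right Col4a1, Col4a2, Col15a1 and Col18a1 lie past 1 in every library (1.73 to 4.08), and on the left Col18a1 lies at -2.96 at E13.5.

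Among the fibrillar chains, Col1a1 and Col1a2, which make up type I collagen, and Col3a1, which makes up type III, were led by dermal-like cells at E16.5 and P0. Col1a1 (chromosome 11, 94936224 to 94953042, plus strand, GRCm38) had 1909 CPM (1890.3 to 1927), 8581 CPM (8548 to 8614) and 11783 CPM (11729 to 11836) in the dermal-like cells of the successive stages. In epithelial-like cells it had 773, 899.8 and 609 CPM, and in immune-like cells 1047, 1047 and 644 CPM. The epithelial-like level was therefore at or below that of immune-like cells at each stage and was not read as expression in these cells. Its source was not tested. At E13.5 suprabasal-like cells had 172 and matrix-like or placode-like cells 302 CPM, below the pooled epithelial-like level, which included the cells of mixed sub-clusters. Erythroid-like cells had 1989 CPM (1939 to 2041) at E13.5, above the dermal-like level of that library, and 4612 CPM (4434 to 4795) in 30 cells at E16.5. The median depth was 6256, 13624 and 10027 UMIs in epithelial-like cells and 5976, 11818 and 8221 in immune-like cells. The dermal-like minus epithelial-like difference of Col1a1 was 1.29 (1.24 to 1.34), 3.24 (3.21 to 3.26) and 4.25 (4.22 to 4.28).

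Col3a1 (chromosome 1, 45311538 to 45349706, plus strand) had 2184 CPM (2165 to 2204), 8185 CPM (8153 to 8217) and 15417 CPM (15356 to 15478) in dermal-like cells, against 649, 751 and 858 CPM in epithelial-like cells. Its differences were 1.74, 3.43 and 4.15. Col1a2 went with Col1a1 at 1887, 7206 and 8813 CPM in dermal-like cells, with differences of 1.81, 3.21 and 4.03. At E13.5 tendon-like cells were ahead of dermal-like cells for each of these chains, with 2340.0 CPM (2285 to 2396) for Col1a1 and 2893 CPM (2832 to 2956) for Col3a1, and their intervals did not overlap.

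The upstream sequences of 3 members are shown because their genes represent the patterns of these data: Col3a1 for the dermal-like chains, Col15a1 for the endothelial-like and DC-like or DP-like chains and Col23a1 for the DC-like or DP-like chains. Each is the 250 bases before the RefSeq start on the plus strand of GRCm38.p6, at chr1:45311288-45311537, chr4:47207762-47208011 and chr11:51289670-51289919, and overlaps no annotated exon. Capitals mark matches, on either strand, of a TATA box (TATAAA), a GC box (GGGCGG) or a CCAAT box (CCAAT).
Col3a1: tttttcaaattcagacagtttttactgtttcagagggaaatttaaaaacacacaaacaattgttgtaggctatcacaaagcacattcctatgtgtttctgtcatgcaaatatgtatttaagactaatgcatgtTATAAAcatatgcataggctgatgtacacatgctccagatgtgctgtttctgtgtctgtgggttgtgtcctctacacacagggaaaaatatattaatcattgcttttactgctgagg
Col15a1: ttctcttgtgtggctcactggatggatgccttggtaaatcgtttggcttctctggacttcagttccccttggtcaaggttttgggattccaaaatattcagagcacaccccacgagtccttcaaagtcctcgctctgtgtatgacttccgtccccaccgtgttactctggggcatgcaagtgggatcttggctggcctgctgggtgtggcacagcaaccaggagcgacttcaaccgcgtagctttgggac
Col23a1: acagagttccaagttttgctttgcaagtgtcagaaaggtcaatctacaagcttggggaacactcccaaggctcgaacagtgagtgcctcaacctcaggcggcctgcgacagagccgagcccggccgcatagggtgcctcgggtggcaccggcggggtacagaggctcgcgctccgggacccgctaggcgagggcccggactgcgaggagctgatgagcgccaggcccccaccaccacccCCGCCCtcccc
Col3a1 held 1 match to the TATA box, Col23a1 held 1 to the GC box read on the minus strand, and Col15a1 held none. The TATA box letters were in 12.4% of 32851 such regions, the GC box in 32.7% and the CCAAT box in 33.8%, and in 3, 20 and 10 of the 33 regions listed for 30 of the members. A match describes letters only and was not tied to the levels.

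Col5a1 and Col5a2, the type V chains that control the width of type I fibrils, had lower levels than the type I chains. Col5a1 had 134, 539 and 418 CPM in dermal-like cells, and its difference from epithelial-like cells was 1.37, 2.55 and 3.25. Col5a2, which lies beside Col3a1 on chromosome 1, had 240.5, 597 and 654 CPM with differences of 1.43, 2.87 and 3.39. The third type V chain, Col5a3, had another distribution. It was at or below 2.02 CPM in every class at E13.5 and at P0 reached 128 CPM (100.5 to 160.1) in Schwann-like and 114 CPM (98.9 to 132) in pericyte-like cells, against 16.7 CPM (14.7 to 18.8) in dermal-like cells. The intervals of the Schwann-like and pericyte-like levels overlapped each other and lay above that of dermal-like cells, which were 1.24 above epithelial-like cells.

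Chains best known from cartilage had their highest level per UMI in tendon-like cells at E13.5. Those 337 cells were named on 4 of 7 tendon markers, and Mia and Otor stood among their leading genes beside Fmod and Tnmd. Whether cartilage cells were among them was not tested. Tendon-like cells gave 41.4% of the Col2a1 UMIs of that library and 34.6% of those of Col11a1, and the more numerous dermal-like cells 27.0% and 34.1%. Col2a1, the main fibrillar chain of cartilage, had 141 CPM (128 to 155) there against 12.2 CPM (10.8 to 13.8) in dermal-like cells, and was at 0.231 and 0.127 CPM in dermal-like cells of the later libraries. Col11a1, a partner of type II in fibrils, had 225 CPM (208 to 243) in tendon-like and 45.9 CPM in Schwann-like cells at E13.5. In the later libraries Schwann-like cells were highest for Col11a1, with 133 CPM (115 to 154) and 135 CPM (107 to 168), against 12.6 and 3.36 CPM in dermal-like cells, which at E16.5 lay just past a difference of 1 from epithelial-like cells. Of the Col11a1 UMIs at P0, 35.0% came from Schwann-like cells, 32.3% from cells with no class and 23.5% from dermal-like cells. Col11a2, another type XI chain, had 7.52 CPM (4.71 to 11.4) in tendon-like cells at E13.5 and no more than 5.07 CPM in any class later.

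Col24a1, a fibrillar chain, had its highest level in dermal-like cells at each stage, with 14.2 CPM (12.6 to 15.8), 6.99 CPM (6.08 to 8.002) and 2.79 CPM (2.03 to 3.74). The second class overlapped it in interval each time, with 10.1 CPM in erythroid-like, 2.61 in muscle-like and 1.70 in Schwann-like cells. Col27a1, a fibrillar chain of cartilage and other tissues, was higher in epithelial-like than in dermal-like cells in the later libraries, and higher still in Schwann-like cells at 97.8 and 196 CPM. It had 67.3 CPM (63.2 to 71.5) in epithelial-like and 53.1 CPM (50.5 to 55.7) in dermal-like cells at E16.5, and 75.0 CPM (70.8 to 79.4) and 34.8 CPM (31.9 to 37.8) at P0. Within the epithelium it was concentrated in matrix-like or placode-like cells, at 119 CPM (108 to 132) and 113 CPM (105 to 120.1), while suprabasal-like cells had 25.7 and 8.66 CPM. Its level in immune-like cells was 6.03 and 31.4 CPM, below the matrix-like level. The difference of Col27a1 between dermal-like and epithelial-like cells, -0.29 (-0.39 to -0.20) and -0.92 (-1.04 to -0.80), did not reach -1 at either stage.

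Type IV chains of basement membrane were divided between endothelial-like and epithelial-like cells. Col4a1 (chromosome 8, 11198423 to 11312826, minus strand) and Col4a2 (11312805 to 11449287, plus strand) are neighbours in opposite orientation whose annotated ends overlap by 22 bases. In endothelial-like cells Col4a1 had 275 CPM (259 to 291), 931 CPM (908 to 954) and 1290.1 CPM (1249.5 to 1332), against 54.8, 215 and 192 CPM in dermal-like cells. Its endothelial-like minus dermal-like difference was 2.14 (2.03 to 2.24), 2.06 (2.01 to 2.11) and 2.69 (2.62 to 2.75). Col4a2 went with it, at 203, 636 and 1019 CPM in endothelial-like cells and differences of 2.12, 2.16 and 2.79. Dermal-like cells in turn had more of the pair than epithelial-like cells at E16.5 and P0, by 1.54 and 1.30 for Col4a1 and 1.39 and 1.38 for Col4a2.

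Pericyte-like cells, the mural cells wrapped around small vessels, reached the endothelial-like level of Col4a1 at E16.5 with 940.0 CPM (899 to 983), and lay below it at P0 with 975 CPM (929 to 1023). Schwann-like cells, which surround axons with a basement membrane, had 119.5, 358 and 405 CPM. Within the endothelial-like class at E16.5, blood-endothelial-like cells had 1172 CPM (1084 to 1265) of Col4a1 and lymphatic-endothelial-like cells 333 CPM (297 to 372). Those intervals did not overlap, and at E13.5 the same order was seen with 729 and 134 CPM.

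The X-linked pair Col4a5 and Col4a6, chains of epithelial basement membranes, leaned to epithelial-like cells after E13.5. Col4a5 had 26.7 CPM (24.2 to 29.5) in epithelial-like and 4.98 CPM (4.22 to 5.84) in dermal-like cells at E16.5, a dermal-like minus epithelial-like difference of -1.29 (-1.42 to -1.16). At P0 the levels were 14.1 and 6.84 CPM, and at E13.5 they were 12.4 and 13.2 CPM with overlapping intervals. Col4a6 had 11.3 CPM (9.63 to 13.1) against 1.02 CPM (0.695 to 1.45) at E16.5 and 7.51 against 1.52 CPM at P0, with differences of -0.95 and -0.60. In immune-like cells Col4a5 was at 0.603 CPM (0.0153 to 3.36) at E16.5. Col4a4 was at or below 2.17 CPM in every class at E13.5 and E16.5, and had 10.2 CPM (3.75 to 22.2) in 98 Schwann-like cells at P0.

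The type VI chains Col6a1, Col6a2 and Col6a3, which are assembled together, were highest in dermal-like cells in every library. No other class overlapped them in interval at E16.5 or P0, and at E13.5 tendon-like cells did for Col6a3 only. Col6a1 had 336 CPM (328 to 343), 1174 CPM (1162 to 1187) and 1113 CPM (1096 to 1129) in dermal-like cells and 90.5, 114 and 65.0 CPM in epithelial-like cells. Col6a3 had 108 CPM (104 to 113), 834 CPM (823 to 844) and 662 CPM (649 to 674) in dermal-like cells. Their differences from epithelial-like cells were 1.78, 3.25 and 3.90 for Col6a1 and 1.67, 2.99 and 3.67 for Col6a3. Col6a2 had 283, 950.4 and 1049.7 CPM, and its differences from epithelial-like cells were 1.68, 2.89 and 3.91.

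The less common type VI chains had other hosts. Col6a5, the member with the fewest UMIs, had 22.8 CPM (16.2 to 31.1) in pericyte-like cells at P0 and 2.40 CPM (0.779 to 5.60) at E16.5, and dermal-like cells had 0.0634 CPM (0.00160 to 0.353) and 0 CPM (0 to 0.122). Of its UMIs at P0 92.9% came from the 242 pericyte-like cells. Col6a6 had 25.8 CPM (20.7 to 31.8) in deep-dermal-like and 0.545 CPM (0.2002 to 1.19) in upper-dermal-like cells at E16.5. At P0 pericyte-like cells had 8.75 CPM (4.90 to 14.4) of Col6a6 and dermal-like cells 2.79 CPM (2.03 to 3.74). Col6a4, Col6a5 and Col6a6 are related chains, and how the counting treated reads shared between them was not given in the sources used here.

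Of the fibril-associated chains, which decorate fibrils and link them to other matrix, Col12a1 and Col16a1 were higher in dermal-like than epithelial-like cells in every library. Col12a1, found in dense connective tissue, had 153 CPM (148 to 158), 241 CPM (235 to 246) and 134 CPM (128 to 139.5) in dermal-like cells, with differences of 1.20, 2.23 and 2.12. Col16a1 had 38.05 CPM (35.5 to 40.7), 132 CPM (128 to 136) and 165 CPM (158 to 171), with differences of 1.03, 2.04 and 2.51. At E13.5 tendon-like cells led both, at 289.9 and 83.1 CPM.

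Schwann-like cells carried a set of fibril-associated chains that dermal-like cells had at lower levels. Col14a1 had 144 CPM (128 to 162), 368 CPM (337 to 402) and 325 CPM (281 to 375) in Schwann-like cells, and 69.1, 105 and 51.1 CPM in dermal-like cells, while tendon-like cells had 218 CPM at E13.5. Its dermal-like minus epithelial-like difference was 1.18, 1.57 and 0.81. Col20a1, a little studied member of the group, had 29.4 CPM (22.2 to 38.1), 37.0 CPM (27.5 to 48.6) and 57.9 CPM (40.1 to 80.9) in Schwann-like cells. In dermal-like cells Col20a1 was at 0.0455, 0.462 and 0.253 CPM, and Schwann-like cells gave 73.1%, 70.8% and 82.9% of its UMIs. No other member drew as large a share from the 191, 109 and 98 Schwann-like cells.

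The type IX chains Col9a1, Col9a2 and Col9a3, partners of type II in cartilage, had their highest levels in tendon-like cells at E13.5 and in Schwann-like cells later. Of the Col9a2 UMIs at E13.5, 31.3% came from tendon-like and 36.0% from dermal-like cells. At E13.5 tendon-like cells had 201 CPM (185.1 to 218) of Col9a1, 125 CPM (112 to 138) of Col9a2 and 184.6 CPM (169 to 201) of Col9a3, against 13.2, 19.1 and 17.1 CPM in dermal-like cells. At E16.5 Schwann-like cells had 20.3, 95.7 and 83.3 CPM, and at P0 they had 11.9, 54.5 and 63.0 CPM. Col9a2 and Col9a3 were above dermal-like cells there without overlap of the intervals in both libraries. Of the Col9a3 UMIs at P0, however, 46.9% lay in cells with no class and 23.3% in epithelial-like cells. Dermal-like cells gave 16.1% of them and Schwann-like cells 8.89%. Col22a1, known from tissue junctions, had 6.71 CPM (3.67 to 11.3) in pericyte-like cells at E16.5 against 0.297 CPM (0.136 to 0.564) in dermal-like cells, and 3.502 CPM at P0. Col19a1 had 23.1 CPM (12.6 to 38.7) in the 66 matrix-like or placode-like cells at E13.5 and 37.0 CPM (27.9 to 48.0) in DC-like or DP-like cells at E16.5.

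The short-chain network chains Col8a1 and Col8a2, which form lattices beneath endothelium and in the eye, both had lower dermal-like levels with stage. Col8a1 had 76.5 CPM (72.8 to 80.2), 45.1 CPM (42.8 to 47.6) and 15.8 CPM (13.9 to 17.9) in dermal-like cells, and was higher there than in epithelial-like cells by 1.44 and 1.23 before P0. Col8a2 had 26.6 CPM (24.5 to 28.9), 5.48 CPM (4.68 to 6.38) and 0.951 CPM (0.532 to 1.57), and 153 CPM (139.6 to 168) in tendon-like cells. Endothelial-like cells had less Col8a1 than dermal-like cells in each library, at 21.0, 4.35 and 1.35 CPM.

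Of the chains that span the membrane, Col23a1 (chromosome 11, 51289920 to 51583918, plus strand) was highest in dermal-like cells at every stage (erythroid-like cells overlapped them in interval at E16.5), with 47.7 CPM (44.8 to 50.6), 56.8 CPM (54.1 to 59.5) and 52.4 CPM (48.9 to 56.1). Its differences from epithelial-like cells were 1.58 (1.34 to 1.81), 2.11 (1.98 to 2.23) and 2.18 (2.04 to 2.303). Col25a1, known for its part in the innervation of muscle, had 45.1 CPM (37.8 to 53.5) in tendon-like, 24.4 CPM in muscle-like and 22.1 CPM in dermal-like cells of the E13.5 library. It had 4.65 and 16.1 CPM in dermal-like cells later, and at P0 was 1.11 above epithelial-like cells. Col13a1, found at adhesion sites and neuromuscular junctions, had 16.9 CPM (12.5 to 22.2) in endothelial-like and 9.89 CPM (8.40 to 11.6) in dermal-like cells at P0.

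The multiplexins separated the classes in another way than the fibrillar chains. Col15a1 (chromosome 4, 47208161 to 47313167, plus strand) had 87.7 CPM (79.0 to 97.2), 244 CPM (232 to 256) and 266 CPM (248 to 286) in endothelial-like cells. In dermal-like cells it had 1.91 CPM (1.38 to 2.58), 23.6 CPM (21.9 to 25.3) and 73.4 CPM (69.2 to 77.7). The endothelial-like minus dermal-like difference was 3.04 (2.88 to 3.18), 2.92 (2.82 to 3.02) and 1.73 (1.61 to 1.85), so the gap was narrowest at P0. Epithelial-like cells had 2.25, 3.69 and 5.09 CPM, below immune-like cells at 3.79, 6.63 and 12.0 CPM. Within the endothelial-like class at E16.5, Col15a1 had 326 CPM (281 to 377) in the 34 blood-endothelial-like cells and 7.39 CPM (2.97 to 15.2) in the 43 lymphatic-endothelial-like cells.

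Col18a1, the source of endostatin, had 264 CPM (248 to 279.9), 351 CPM (337 to 365) and 168 CPM (154 to 184) in endothelial-like cells and 6.64, 11.3 and 29.2 CPM in dermal-like cells. Unlike Col15a1 it was also present in epithelial-like cells, at 119 CPM (109 to 129.7), 71.9 CPM (67.7 to 76.3) and 35.9 CPM (33.0 to 39.0), while immune-like cells had 17.8, 10.2 and 19.4 CPM. The dermal-like minus epithelial-like difference of Col18a1 was -2.96 (-3.10 to -2.80), -1.94 (-2.05 to -1.83) and -0.23 (-0.37 to -0.09) in order of stage. Schwann-like cells had 120.1, 368 and 531 CPM and were the highest class at P0. At E16.5 lymphatic-endothelial-like cells, with 509 CPM (465 to 557), lay above blood-endothelial-like cells with 260.4 CPM (219.9 to 306), the reverse of the order of Col15a1 and Col4a1.

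Col26a1, a collagen also known from testis and ovary, was highest in dermal-like cells at every stage, with 224 CPM (218 to 231), 150.3 CPM (146 to 155) and 152 CPM (146 to 158). Its differences from epithelial-like cells were 1.73, 2.65 and 2.80. Muscle-like cells had 139.6 CPM at E13.5 and 115 CPM (83.4 to 154) at E16.5, the latter in 31 cells.

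Dermal-like cells of different stages were compared to describe how the collagens went with age. Each stage was prepared and sequenced apart, and only P0 skin was digested with collagenase IV. Between E13.5 and E16.5, 12 members were higher at E16.5, beside 1.56% of all genes, and 3 were lower, beside 1.67%. The median difference of the members was 0.22 against -0.05 over all genes. The largest was Col6a3 at 2.84 (2.78 to 2.89), followed by Col1a1 at 2.16, Col5a1 at 1.93, Col1a2 at 1.93 and Col3a1 at 1.90. Others past 1 included Col4a1 at 1.80, Col4a2 at 1.56 and Col15a1 at 1.49. The other basement membrane chains had 0.36 for Col18a1, 0.04 for Col4a4, -0.63 for Col4a5 and -0.23 for Col4a6. Lower at E16.5 were Col8a2 at -1.24 (-1.36 to -1.12), Col25a1 at -1.13 (-1.25 to -1.01) and Col2a1 at -1.12 (-1.22 to -1.02), and none of the 3 passed a difference of 1 when clusters were made at a resolution of 0.5 or from 4000 variable genes.

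Between E16.5 and P0 fewer members differed. Col15a1 was the only one higher at P0, by 1.31 (1.21 to 1.42), beside 1.74% of all genes, and Col8a1 the only one lower, at -1.10 (-1.22 to -0.97), beside 2.27%. The type I and III chains had differences of 0.46 for Col1a1, 0.29 for Col1a2 and 0.91 for Col3a1, none reaching 1. In cells of at least 2500 genes they were -0.22, -0.34 and 0.29, so the sign for the type I chains turned with the cell filter. The members' median was -0.03 and that of all genes -0.05.

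Dermal-like cells were clustered again to compare fibroblasts at different depths of the skin. Deep-dermal-like cells, named from genes such as Dpt, Mfap5 and Dlk1, numbered 359, 294 and 697. Upper-dermal-like cells, named from genes such as Lef1 and Apcdd1, numbered 802, 975 and 770. At E13.5 the deep-dermal-like sub-clusters, of 190 and 169 cells, rested on 3 and 4 of the 8 deep markers. None of these markers was among their 10 leading genes, so the name is weak at that stage. Collagens took 1.12%, 3.59% and 6.40% of the UMIs of deep-dermal-like cells and 0.616%, 2.52% and 2.72% of those of upper-dermal-like cells. In deep-dermal-like cells 10 members were higher at E13.5, beside 1.98% of all genes, 7 at E16.5, beside 2.01%, and 11 at P0, beside 2.15%. With 50 CPM added in place of 10 these counts were 3, 2 and 7. The groups also differed in cell-cycle genes, whose summed level over a list of 40 chosen after seeing the data was 4964, 5645 and 5843 CPM in upper-dermal-like and 968, 2147 and 351 CPM in deep-dermal-like cells. Of the upper-dermal-like cells 513, 630 and 417, and of the deep-dermal-like cells 0, 106 and 0, sat in sub-clusters with at least 3 such genes among their 10 leading genes. Without those sub-clusters 13, 7 and 11 members were higher in deep-dermal-like cells, and Col3a1 at P0 went from 1.005 to 0.77.

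Col12a1 alone was higher in deep-dermal-like cells in all 3 libraries. It had 205 CPM (190.3 to 221), 488 CPM (465 to 512) and 304 CPM (289 to 320.0) there and 83.8 CPM (77.9 to 89.95), 80.5 CPM (75.2 to 85.9) and 39.0 CPM (33.7 to 44.8) in upper-dermal-like cells, with differences of 1.20, 2.46 and 2.68. Col14a1 had 79.0 and 60.9 CPM at E13.5, a difference of only 0.33. Later the same gene had 343 CPM (324 to 364) and 36.1 CPM (32.6 to 39.8) at E16.5 and 117 CPM (108 to 127) and 12.8 CPM (9.85 to 16.3) at P0, with differences of 2.94 and 2.48. Col5a3 went the same way, at 0.26, 1.95 and 2.14.

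Other members passed the threshold in only part of the libraries. Col11a1, Col8a2 and Col9a2 were higher in deep-dermal-like cells at E13.5, by 1.71, 2.01 and 1.58, and at E16.5, by 1.499, 1.62 and 1.68, while at P0 their levels in both groups were at or below 4.395 CPM. Also past 1 at E13.5 were Col5a2 at 1.33, Col13a1 at 1.20, Col16a1 at 1.19, Col1a1 at 1.04 and Col3a1 at 1.03. Col1a1 and Col3a1 had 0.50 and 0.42 at E16.5. At P0 the deep-dermal-like cells were higher in Col15a1 by 2.17, Col1a2 by 1.68, Col18a1 by 1.63 and Col1a1 by 1.598. Col5a1 at 1.39, Col4a2 at 1.02 and Col3a1 at 1.005 also passed at P0. Col25a1 passed at E13.5 with 1.80 and at P0 with 1.51 and had 0.62 between them. Col6a1, Col6a2 and Col6a3 did not reach 1 in any library, with differences from -0.19 to 0.20.

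A few members had their higher level in upper-dermal-like cells. Col23a1 had 60.6 CPM (55.6 to 65.9), 38.6 CPM (35.1 to 42.5) and 59.7 CPM (53.2 to 66.9) there against 38.6, 20.8 and 7.18 CPM in deep-dermal-like cells, and its deep minus upper difference was -0.54, -0.66 and -2.02 (-2.26 to -1.76). Col8a1 had 39.0 against 2.87 CPM at P0, a difference of -1.93 (-2.15 to -1.67). Col26a1 had 215 against 64.4 CPM at P0, a difference of -1.597 (-1.76 to -1.43). At E13.5 the levels of Col26a1 were 226 and 233 CPM with overlapping intervals.

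The DC-like or DP-like cells, named from genes such as Sox2, Sox18, Bmp3, Bmp4 and Corin, were 175 at E16.5 and 152 at P0 and were set against the other dermal-like cells of their library. Collagens took 1.12% (1.10 to 1.13) and 1.38% (1.36 to 1.40) of their UMIs, below the share of the whole dermal-like class. Their median cell had 1.05% and 0.749%, in the reverse order of stage. At E16.5, 4 members were higher in them, beside 3.68% of all genes, and 8 lower, beside 3.37%, and at P0 again 4 were higher, beside 4.39%, and 8 lower, beside 2.67%. A sub-cluster of 122 cells at E13.5 rested on 3 of the 12 markers and had Scx, a tendon gene, among its leading genes, so it was not compared.

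The lower members in both libraries were Col1a1, Col1a2, Col3a1, Col5a1, Col5a2 and Col12a1. Col1a1 had 1551 CPM (1488 to 1615) in DC-like or DP-like cells at E16.5 and 2660.5 CPM (2567 to 2756) at P0, with differences of -2.52 (-2.58 to -2.46) and -2.23 (-2.28 to -2.18). Col12a1 had 16.51 CPM (10.7 to 24.4) and 25.9 CPM (17.5 to 37.0), with differences of -3.31 and -2.08. The type VI chains did not reach a difference of 1 in these cells, where Col6a1 had 1492 CPM (1432 to 1555) at E16.5 and 832 CPM at P0, with differences of 0.36 and -0.44, and Col6a3 had -0.01 and 0.03.

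Col23a1 and Col15a1 were higher in DC-like or DP-like cells in both libraries. Col23a1 had 389.6 CPM (359 to 422) at E16.5 and 342 CPM (309 to 377) at P0, with differences of 3.02 (2.89 to 3.15) and 3.16 (2.98 to 3.33). Among all classes and sub-clusters named, no other held as much Col23a1 in either library. The next named was the whole dermal-like class at E16.5, which includes these cells, and the upper-dermal-like cells at P0, with 56.8 and 59.7 CPM. The E16.5 clusters of 211 and 566 cells with no class had 228 and 71.3 CPM. Both scored highest for the dermal markers but were not among the other dermal-like cells of this comparison. Col15a1 had 72.0 CPM (59.1 to 86.8) and 176 CPM (153 to 202), with differences of 1.40 and 1.31. The remaining higher members changed with stage: Col11a1 and Col19a1 at E16.5, with 98.4 CPM (83.2 to 116) and 37.0 CPM (27.9 to 48.0), and Col13a1 and Col9a2 at P0, with 93.3 CPM (76.5 to 113) and 19.0 CPM (11.9 to 28.8). Col13a1 had a difference of 2.96 (2.68 to 3.22) at P0 and 0.75 (0.39 to 1.16) at E16.5.

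**Figure D4:**
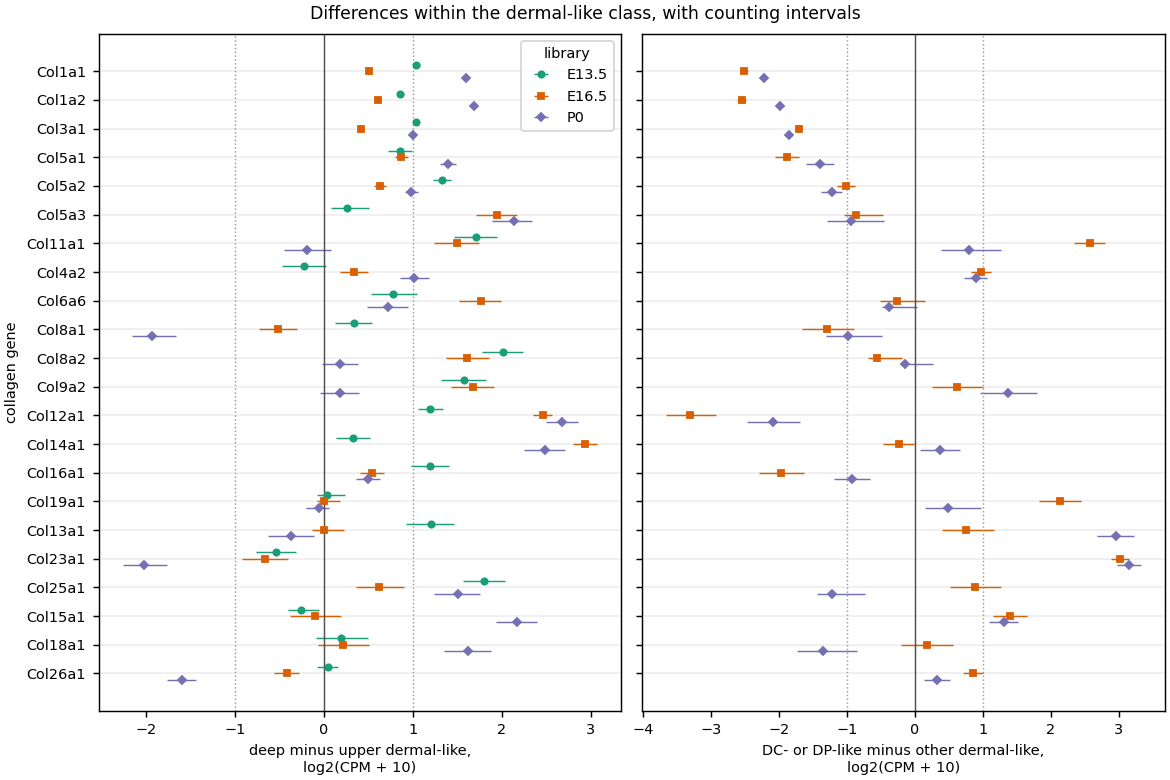
Difference of log2(CPM + 10) within the dermal-like class for the 22 collagens past 1 in a comparison drawn, deep-dermal-like minus upper-dermal-like on the left and DC-like or DP-like minus other dermal-like cells on the right, with 1 point per library and bars for the counting interval. On the right Col23a1 lies at 3.02 and 3.16 while Col1a1 lies at -2.52 and -2.23, and on the left Col14a1 goes from 0.33 at E13.5 to 2.94 and 2.48.

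The adipocyte-like sub-cluster of 114 cells at P0, named from genes such as Pparg and Fabp4, had 2.21% of its UMIs from collagens. Col15a1 had 239.6 CPM (214 to 267) there, 1.87 (1.70 to 2.05) above the other dermal-like cells, and Col4a1 had 447 CPM (411 to 484), 1.36 above them. Col4a2 had a difference of 1.36, while Col4a5 had -0.49 and Col18a1 -0.05. Col1a1 was lower, at 5945 CPM (5814 to 6077) with a difference of -1.05, and Col1a2 had -1.06.

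Pericyte-like cells had lower levels of the type I chains than dermal-like cells and a different balance of chains. Col1a1 had 906 CPM (866 to 948) and 1355 CPM (1300.1 to 1411) in them, -3.23 and -3.11 on the log2 scale from dermal-like cells. Col18a1 had 201 CPM (182 to 221) and 288 CPM (263 to 314), 3.31 and 2.93 above dermal-like cells. Col5a3 was 2.22 (2.00 to 2.44) above dermal-like cells at P0.

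The ratio of chains within a class was compared with the ratio in immune-like and erythroid-like cells. At E13.5 the ratio of Col1a1 to Col1a2 was 1.01 (0.998 to 1.03) in dermal-like and 1.02 (0.991 to 1.06) in tendon-like cells. It was 1.45 (1.38 to 1.53) in epithelial-like, 1.45 (1.38 to 1.53) in endothelial-like, 1.49 (1.41 to 1.56) in immune-like and 1.67 in erythroid-like cells. The epithelial-like, endothelial-like and immune-like ratios thus lay together and away from that of the dermal-like cells of the same library. Other classes lay between them, with 1.12 in muscle-like, 1.20 in Schwann-like, 1.30 in neural-like and 1.37 in melanocyte-like cells. One dermal-like cluster of 672 cells, with a median of 4735 UMIs, had 2420.0 CPM of Col1a1 and 1483 of Col1a2, while the other 6 dermal-like clusters had 1065 to 2802 and 1190.0 to 2795 CPM.

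At E16.5 the ratio of Col1a1 to Col1a2 was 1.19 in dermal-like, 1.17 in epithelial-like, 1.17 in immune-like and 1.19 in erythroid-like cells, with overlapping intervals, whereas it was 1.01 (0.959 to 1.06) in Schwann-like and 0.707 (0.666 to 0.750) in pericyte-like cells. The ratio of Col3a1 to Col1a1 in pericyte-like cells was 2.62 (2.48 to 2.76) at E16.5 and 2.10 (2.00 to 2.204) at P0, against 0.954 (0.949 to 0.959) and 1.31 (1.30 to 1.32) in dermal-like cells. At P0 the same ratio was 1.41 in epithelial-like and 1.56 in immune-like cells. Nearest to the pericyte-like ratio at P0 were melanocyte-like cells with 1.79 (1.63 to 1.95) and endothelial-like cells with 1.72 (1.62 to 1.84).

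The ratio of Col4a1 to Col4a2 lay between 1.27 and 1.71 in the classes of E16.5 and P0 with at least 50 UMIs of each chain, and between 0.817 and 1.54 in such classes at E13.5. That of Col6a1 to Col6a3 was 3.10 (2.96 to 3.25), 1.41 (1.39 to 1.43) and 1.68 (1.64 to 1.72) in the dermal-like cells of the successive stages. Immune-like cells had 3.95 and 1.20 at E13.5 and E16.5, so both classes had the higher ratio at E13.5. Its part in the stage difference of Col6a3 was not tested.

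**Figure D5:**
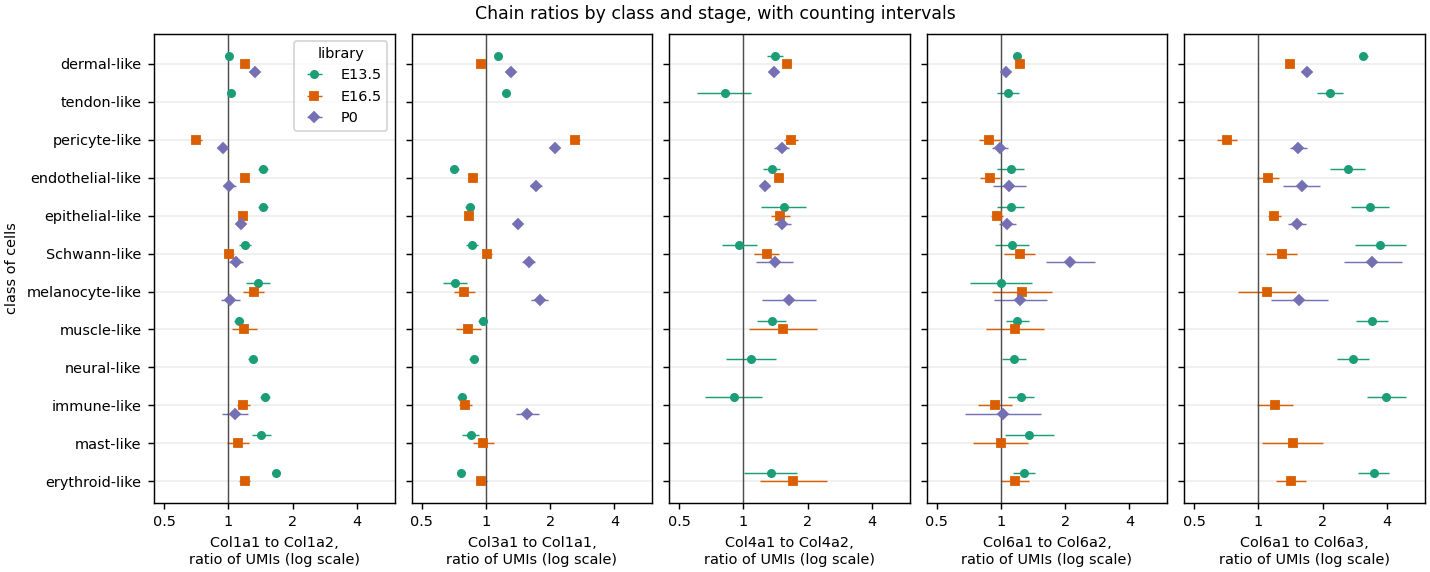
Ratio of UMIs of chain pairs (log axis) in every class with at least 50 UMIs of each chain, with 1 point per library and bars for the counting interval. Pericyte-like cells are highest in Col3a1 to Col1a1 (2.62 at E16.5 and 2.10 at P0), with melanocyte-like cells next at P0 (1.79). Col6a1 to Col6a3 is higher at E13.5 (2.16 to 3.95) than at E16.5 (0.714 to 1.45).

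Genes that fold, cut, bind or degrade collagen were followed as a list of 51, of which 50 were in the table and all 50 had at least 50 UMIs. In dermal-like against epithelial-like cells 17, 32 and 29 of them were higher in order of stage, beside the same 2.75%, 5.89% and 6.24% of all genes. Among those higher were Serpinh1, the collagen chaperone Hsp47, at 2076 against 697 CPM at E13.5, a difference of 1.56 (1.51 to 1.61), and 3.10 (3.06 to 3.15) at P0. Pcolce, an enhancer of procollagen cleavage, had 3.25 (3.15 to 3.34) at E16.5 and 4.01 (3.91 to 4.11) at P0. Rcn3, a resident of the endoplasmic reticulum, had 3.32 and 3.78, Ctsk, a protease that cuts collagen, 3.01 and 3.25, and Creb3l1, a transcription factor for collagen secretion, 2.93 at E16.5.

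The receptors of the list were divided. Ddr2, the collagen receptor tyrosine kinase of mesenchyme, was 1.46 (1.26 to 1.67) higher in the dermal-like cells of E13.5, and Ddr1, its epithelial relative, was lower at every stage with -1.32, -1.72 and -2.10 (-2.24 to -1.96). Adgrg1, an adhesion receptor that binds Col3a1, had -0.82, -1.44 and -2.45 (-2.57 to -2.32), the last from 3.55 against 64.0 CPM.

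Between the dermal-like cells of E13.5 and E16.5, 7 of the 50 genes were higher at E16.5, beside 1.56% of all genes, and 0 were lower, beside 1.67%. The largest was P4ha2, a prolyl hydroxylase subunit, at 274 against 28.9 CPM, a difference of 2.87 (2.78 to 2.95), followed by Rcn3 at 1.54, the lysyl hydroxylase Plod1 at 1.48 and the propeptidase Adamts2 at 1.24. At P0 the gelatinase Mmp2 was the only one of the 50 higher than at E16.5, by 1.48 (1.42 to 1.54), beside 1.74% of all genes. This count is near the share of all genes. Lower at P0 were 4, beside 2.27%, namely P4ha1 at -1.48, Fkbp14 at -1.28, Mia3 at -1.05 and P4ha2 at -1.04.

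In DC-like or DP-like cells 17 of these genes were lower than in the other dermal-like cells at E16.5 and 10 at P0, beside 3.37% and 2.67% of all genes. P4ha2 had -2.48 and -1.68, Rcn3 had -2.39 and -1.95, and at P0 Serpinh1 had -1.54. Higher were Tmem38b, a potassium channel of the endoplasmic reticulum, in both libraries at 1.61 and 1.22, the membrane protease Mmp16 at E16.5 at 1.25 and the lysyl hydroxylase Plod2 at P0 at 2.54 (2.28 to 2.79). In deep-dermal-like cells 4, 5 and 4 genes of the list were higher than in upper-dermal-like cells, beside 1.98%, 2.01% and 2.15% of all genes, with Fap, a fibroblast protease, at 2.04 at E16.5 and Pcolce at 2.48 (2.40 to 2.56) at P0.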

How the data were processed

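Dissociated dorsal skin was profiled by droplet-based 3' sequencing, with 1 library per stage (E13.5, E16.5, P0). Per the submitters' processing notes the authors used Cell Ranger 2.2.0 and mm10. The deposited table, filtered by the authors to cells of at least 1750 genes, gives the natural log of 1 plus a gene's UMIs per 10000 UMIs of the cell. Whole UMIs were recovered for 100% of 48197283 values above 0 (tolerance 0.001). The design text gives 15086 cells, the table held 16235, and 16235 passed that minimum.

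Each library was clustered alone with scanpy 1.11.5 (2000 variable genes without collagens, 30 components, 15 neighbours, Leiden resolution 1). A cluster was named where at least 3 markers lay a log2 difference of 1 or more above the 25th percentile of clusters and its leading genes were not those of another class. Doublets were kept, since the caller marked 0, 84 and 106 cells and so did not work at E13.5. UMIs were summed per class and differences taken over 15477 genes of at least 50 UMIs. The scripts were run on simulated Poisson counts with known changes, which hold no variation between cells or animals. Intervals are exact 95% Poisson for levels and binomial for shares and ratios. Those of differences combine the Poisson intervals of both levels. Libraries held 53334740, 66239195 and 46599806 UMIs.

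Members and gene lists were chosen with earlier results of these data known. All members are accounted for, but not every difference past 1 is printed. Values were chosen from differences past 1 and from members of most UMIs in each group. Of the processing list up to 5 highest and 5 lowest genes are named. Alternatives changed the clustering, naming, cell filter, weighting, added CPM and threshold. Positions are GRCm38, from GENCODE, and sequences are from RefSeq.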

Additional observations from a re-analysis of the deposited data

Results flagged for a closer look

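Col25a1 differed in direction between the libraries in DC-like or DP-like cells. It was 0.88 above the other dermal-like cells on the log2(CPM + 10) scale in the E16.5 library and at -1.22 from them in the P0 library. With 1 library a stage the difference between the stages was not tested.

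Cells that were given no class also held collagen UMIs. The collagen share of their UMIs was 0.256%, 1.72% and 0.758% in order of stage. The 2 unnamed clusters at E16.5, of 566 and 211 cells, had 1.85% and 1.43%, and the cluster of 211 cells had 228 CPM of Col23a1. Both scored highest for the dermal markers, with 10 and 11 of the 12 high. They were left unnamed because markers of neural-like and erythroid-like cells, in that order, led their genes. The E16.5 dermal-like class and its subsets therefore lack them. At P0 a cluster of 402 cells had 1.98%, whereas clusters of 217 and 134 cells had 0.196% and 0.133%. These cells enter no comparison above.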

How the results depend on the processing

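No paired analysis was possible because each stage had 1 library and no result comes from a test. Over all alternatives 361 counts stayed within 1.5 times the reported count and 64 did not, and of the differences of single genes past the threshold in the reported setting 4393 kept their side of it, 274 did not and 4 changed sign. Genes below the threshold were not followed in these numbers. Those 4 were Col13a1 in deep minus upper dermal-like cells at E13.5, at -0.091 in cells of at least 2500 genes, Col14a1 in pericyte-like minus dermal-like cells at E16.5, at 0.046 with classes from each cell's own marker UMIs, and, with the median of clusters as reference, Col23a1 in endothelial-like minus dermal-like cells at P0, at 0.41, and Col8a1 in DC-like or DP-like cells at E16.5, at 0.93. The cause was not tested for these or for the values that follow, apart from added CPM and thresholds, which change the count by construction.

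Collagens higher in dermal-like than epithelial-like cells at E13.5 numbered 8 with 50 CPM added and 0 at a log2 difference of 2. Processing genes higher there numbered 27 with 1 CPM added, 4 with 50, 33 at a difference of 0.5, 0 at 2 and 27 without mixed sub-clusters at E13.5, 21 with 50 CPM and 13 at 2 at E16.5, and 15 and 12 at P0. Collagens lower in endothelial-like than dermal-like cells numbered 7 with 50 CPM and 0 at 2 at E13.5, and 25 with 1 CPM at E16.5. Dermal-like collagens higher at E16.5 than E13.5 numbered 2 at a difference of 2. The lower ones numbered 0 at resolution 0.5, 1 at resolution 2, 0 with 4000 variable genes, 5 with own-UMI classes, 8 with 1 CPM, 0 with 50, 10 at 0.5 and 0 at 2.

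Collagens higher at P0 than E16.5 numbered 2 in cells of at least 2500 genes, 2 with the median reference, 3 with own-UMI classes, 4 with 1 CPM, 0 with 50, 2 with each cell weighed the same, 5 at 0.5 and 0 at 2. The lower ones numbered 0 at resolution 2, 3 with 4000 genes, 2 with collagens among the features, 2 without doublets, 2 at 2500 genes, 0 with the median reference, 2 with own-UMI classes, 8 with 1 CPM, 0 with 50, 2 with equal weights, 5 at 0.5 and 0 at 2. In deep-dermal-like cells the higher numbered 16 with 1 CPM, 3 with 50, 16 at 0.5 and 1 at 2 at E13.5, 2 with 50 CPM, 14 at 0.5 and 2 at 2 at E16.5, and 7 with 50 CPM and 4 at 2 at P0.

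In DC-like or DP-like cells at E16.5 the higher numbered 9 with 1 CPM, 2 with 50 and 11 at 0.5, and the lower 13 with 1 CPM, 13 at 0.5 and 3 at 2. At P0 the higher numbered 8 with the median reference, 2 with 50 CPM, 7 at 0.5 and 2 at 2, and the lower 13 with 1 CPM and 2 at 2.

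The collagen share of dermal-like cells moved beyond its counting interval. At E13.5 it was 0.790% at resolution 0.5, 0.784% at 2, 0.814% with 4000 genes, 0.819% at 2500 genes, 0.895% with own-UMI classes, 0.797% with equal weights, 0.798% without mixed sub-clusters and 0.812% without the shallow cluster. At E16.5 it was, among others in the same order, 2.71%, 2.98%, 2.99%, 2.91%, 3.02%, 2.89% and 2.87%, and 2.88% with collagens among the features, 2.95% without doublets and 2.71% with clusters led by another class kept. At P0 it was 4.25% at resolution 2, 4.02% with 4000 genes, 3.80% with collagens among the features, 3.82% without doublets, 2.74% at 2500 genes, 4.51% with the median reference, 3.81% with clusters led by another class kept, 5.62% with own-UMI classes, 4.29% with equal weights and 4.25% without mixed sub-clusters. The order of E16.5 and P0 turned in cells of at least 2500 genes.

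The settings without mixed sub-clusters, without the shallow cluster, without shared barcodes and without cycling sub-clusters were chosen after seeing the data. Sub-class comparisons under own-UMI classes, and deep minus upper under the median reference at E16.5 and P0, were not run because no sub-clusters were named. Depth limits the rare chains most, since 31 to 109 cells stand behind several levels in muscle-like and Schwann-like cells.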
